A study of Oryza sativa Japonica Group with 6 samples.

Results

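The heat shock proteins and the heat stress factors of rice were followed in mature anthers of the dao mutant and of wild-type plants. Members were the probe sets whose gene has a name or synonym that begins with HSP or HSF and goes on with a digit, a letter and a digit, or a hyphen. They came to 64 of the 57258 non-control probe sets of the array and belong to 43 genes. The small heat shock proteins, named HSP16 to HSP26, had 26 probe sets for 19 genes, the larger ones 9 for 4 genes and the heat stress factors 29 for 20 genes. A further 6 genes with such names had no probe set of their own in the gene table used here, and 2 probe sets listed for several genes were left out.

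There were 3 arrays labelled dao and 3 labelled wild type, each from total RNA of anthers taken at anthesis from field-grown plants of a japonica variety. DAO is the dioxygenase that oxidises the auxin indole-3-acetic acid, and the comparison asks which anther transcripts differ when it is mutated. Title, source and tissue labels all give anthers, while the free-text descriptions speak of young seedlings and call the mutant ones Epi-df. The lesion of the mutant and the driver of any transgene were not stated in what was used here. The array has 1 colour and several short probes per probe set, and the deposited value is 1 intensity per probe set and array.

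Heat stress factors are transcription factors that bind heat shock elements in promoters. Those of class A carry an activation motif, while those of class B lack it and are mostly known as repressors or helpers of class A. Small heat shock proteins hold unfolding proteins in solution, HSP101 pulls proteins out of aggregates, and HSP90 completes the folding of client proteins such as kinases and receptors. In Arabidopsis, HSP90 acts with its partner SGT1 to stabilise the auxin receptor TIR1. In anthers many of these genes respond to heat, and some small heat shock proteins are also made during normal pollen development.

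DAO itself had a signal of 1551, 1168 and 1391 on the arrays labelled dao, against 480, 883 and 686 on the wild-type arrays (log2 difference 1.04, SE 0.22, adjusted p = 0.0251 by limma). The place of its probes relative to the lesion is unknown, so this neither checks nor contradicts the labels, and every direction here is for arrays as labelled. The median signal was 8.80 to 9.11 on the dao arrays and 8.93 to 9.31 on the wild-type arrays. The 27 hybridisation spike-in probe sets were all lower on the dao arrays, with a median log2 difference of -0.38, and the part of this in the values here was not tested. Genes known from pollen were bright in both groups: EXPB9, a beta-expansin, stood at 11540, 11242 and 11360 on the dao arrays, against 12682, 12506 and 13036 on the wild-type arrays. All 7 pollen genes of the marker list had a lower mean on the dao arrays, 0 past the threshold in limma and 3 at an unadjusted p of 0.05 or less. The log2 difference was below 0 in 17405 of all 34355 probe sets tested and in 6976 of the 18330 paired with 1 gene. The summed signal of the pollen list was 29646 to 31174 on the dao arrays and 33402 to 35937 on the wild-type arrays. With all arrays, no share over all probe sets was counted at that unadjusted p, here or for the other lists. In such bulk samples fewer cells of a type and less RNA per cell cannot be told apart.

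The arrays numbered 3 lay mostly between the others. Where the other arrays of a group differed at least 2-fold, the third lay between them in 1223 of 1236 probe sets on the dao arrays and in 1891 of 1918 on the wild-type arrays. Among the heat shock members the corresponding counts were 6 of 6 on the dao arrays and 10 of 10 on the wild-type arrays. The titles call the samples biological replicates, but nothing says that they came from separate plants or pools, so p-values measure only the spread between these arrays. Whether the third arrays are independent of the others was not tested. Counts, class medians and the members past the threshold are therefore given with and without both arrays numbered 3.

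Of the 64 probe sets, 55 had a mean log2 signal at or above the 40th percentile of all non-control probe sets and were tested with limma. Those 55 covered 38 genes, and the 5 genes left without one were HSP16.6, HSP22.3, HSP23.2, HSFA2B and HSFC1B. The signals of the 9 probe sets left out averaged 3.09 to 6.54 on the dao arrays and 3.16 to 6.15 on the wild-type arrays. Without detection calls, it is unknown which of the dimmer probe sets lie above background.

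With both the adjusted p at 0.05 or less and the difference at least 2-fold, 6 of the 55 probe sets were higher on the dao arrays and 1 was lower. The higher share, 10.9%, compares with 2.03% of all 34355 probe sets tested and with 2.95% of those paired with 1 gene. For the lower share the corresponding values were 1.34% of all probe sets tested and 0.797% of those paired with 1 gene. Past the adjusted p alone, at any fold, 16 members were higher and 1 was lower, where 6.53% of all probe sets were higher and 3.35% lower. Among probe sets paired with 1 gene those shares were 9.92% and 2.65%. Every dao array lay above every wild-type array in 28 of the 55 (17.9% of all probe sets tested, 26.2% of those paired with 1 gene). The reverse was seen in 1 of the 55 (13.5% and 10.4%). The log2 difference was above 0 in 47 of the 55, or 85.5%, against 49.3% of all probe sets tested and 61.9% of those paired with 1 gene.

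**Figure D1:**
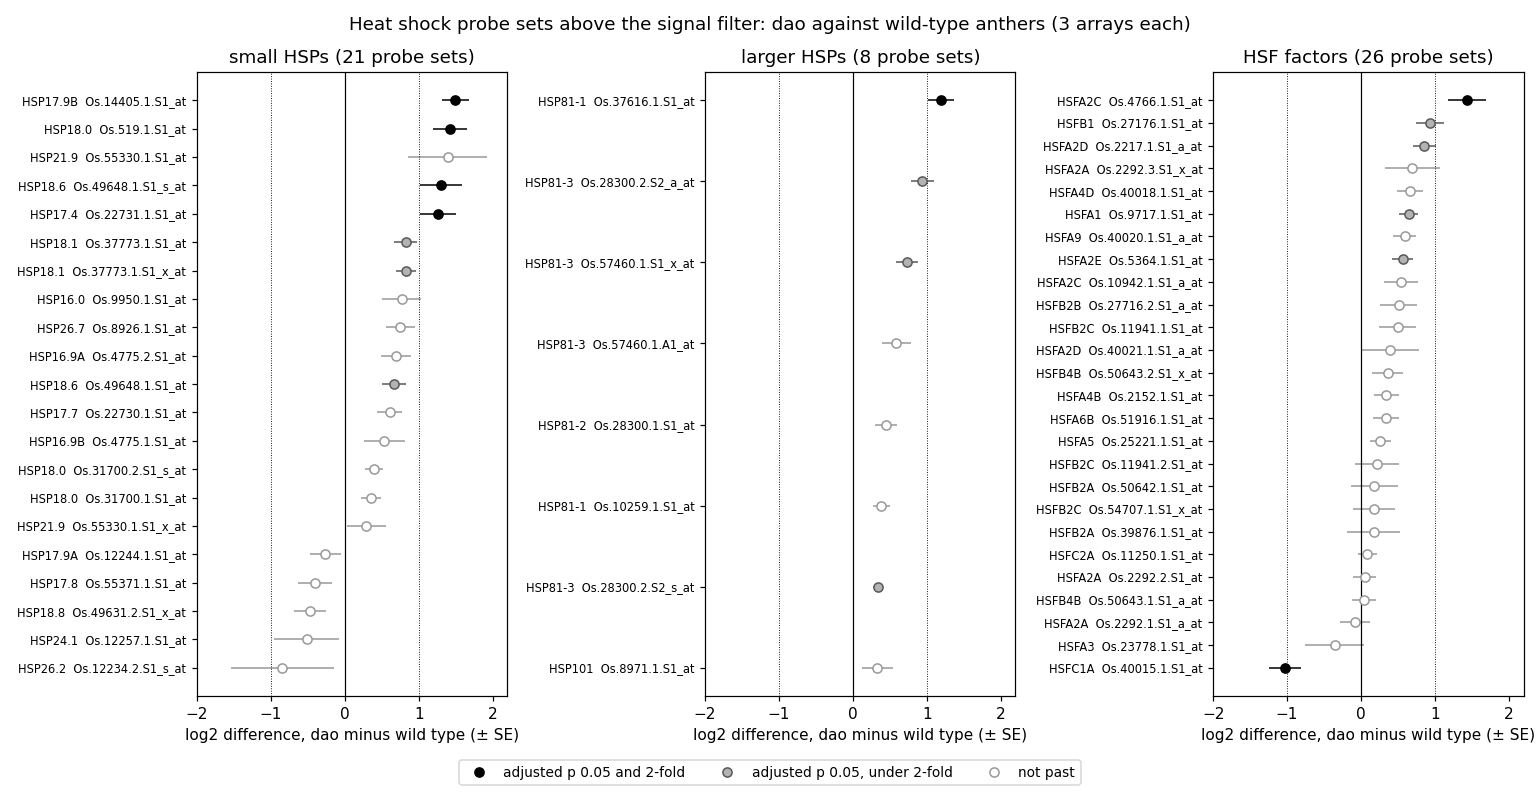
Log2 difference between dao and wild-type anthers (x axis, dao minus wild type, 3 arrays each) for the 55 heat shock probe sets above the signal filter, by class; points are limma estimates and bars their standard errors. Black points passed an adjusted p of 0.05 and 2-fold (dotted lines), grey points the adjusted p alone and open points neither; 8 of the 55 points lie below 0, 5 of them small heat shock proteins.

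The median log2 difference over all probe sets of a class, dim ones included, was 0.48 for the small heat shock proteins, 0.45 for the larger ones and 0.34 for the factors. Over all non-control probe sets it was -0.02, and over those paired with 1 gene 0.07. Without both arrays numbered 3, 0 of the 55 members passed in limma, with 20 of them (36.4%) at an unadjusted p of 0.05 or less and a lowest adjusted p of 0.296. In the same setting 0 of the 34355 probe sets passed, and 10.1% were at that unadjusted p, or 12% of those paired with 1 gene. No member passed the adjusted p alone either: the 10 that did so with all arrays had adjusted p from 0.361 to 0.497 by limma and log2 differences from 0.33 to 0.97. Both remaining dao arrays were above both wild-type arrays in 32 of the 55 (22% of all probe sets tested, 30% of those paired with 1 gene). The log2 difference was above 0 in 48 of the 55 (50% of all, 60.5% of those paired with 1 gene). The class medians were then 0.61 for the small heat shock proteins, 0.43 for the larger ones and 0.28 for the factors.

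Among the small heat shock proteins 4 of 21 tested probe sets rose, 0 fell, 3 more were higher on the adjusted p alone and 14 did not pass. The share that rose was 19.0%, against 2.03% of all probe sets tested and 2.95% of those paired with 1 gene. Those that rose belong to HSP17.9B, HSP18.0, HSP18.6 and HSP17.4. HSP17.9B (LOC4325695, chromosome 1) had a signal of 112, 128 and 112 on the dao arrays, against 32.8, 51.0 and 42.8 on the wild-type arrays. The groups did not overlap, and the difference was 1.49 on the log2 scale (SE 0.18, adjusted p = 0.00518). It was past the threshold in 15 of 16 other settings, all but the one without both arrays numbered 3, where the log2 difference was 1.55.

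HSP17.4 (LOC4332360, chromosome 3) belongs to the cytosolic class I small heat shock proteins. Its signal was 659, 629 and 609 on the dao arrays, against 172, 360 and 295 on the wild-type arrays. The dao arrays lay close together while wild-type array 1 stood lowest, and the log2 difference of 1.26 (SE 0.25, adjusted p = 0.0206) was 0.95, under 2-fold, without that array. HSP18.1, its neighbour and of the same class, was read by 2 probe sets, both with a log2 difference of 0.83 (adjusted p = 0.0197 and 0.0114). The brighter of them stood at 426, 444 and 401 on the dao arrays, against 195, 296 and 236 on the wild-type arrays. The groups did not overlap, but the difference was under 2-fold.

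HSP18.0 (LOC4325342, chromosome 1) was read by 3 probe sets that differed in size. The brightest had 834, 745 and 803 on the dao arrays, against 204, 412 and 306 on the wild-type arrays, a log2 difference of 1.42 (SE 0.23, adjusted p = 0.0114). The other probe sets of the gene had log2 differences of 0.39 (adjusted p = 0.0749) and 0.35 (adjusted p = 0.151). In all 3 every dao array was above every wild-type array, but wild-type array 1 was lowest in the first and highest in the other two.

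HSP18.6 (LOC4330933, chromosome 2) rose in 1 of 3 probe sets. The brightest had 86.3, 113 and 94.1 on the dao arrays, against 24.8, 51.9 and 48.0 on the wild-type arrays (log2 1.30, SE 0.28, adjusted p = 0.0288). The groups did not overlap, and without wild-type array 1 the log2 difference was 0.96, under 2-fold. Its suffix _s_at marks a set whose probes can match several transcripts. The probe set named for the same cluster without that suffix had a log2 difference of 0.67 (adjusted p = 0.0404), and the third probe set, at 4.38, 4.23 and 4.01 on the dao arrays and 3.64, 5.91 and 4.54 on the wild-type arrays, was under the filter.

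**Figure D2:**
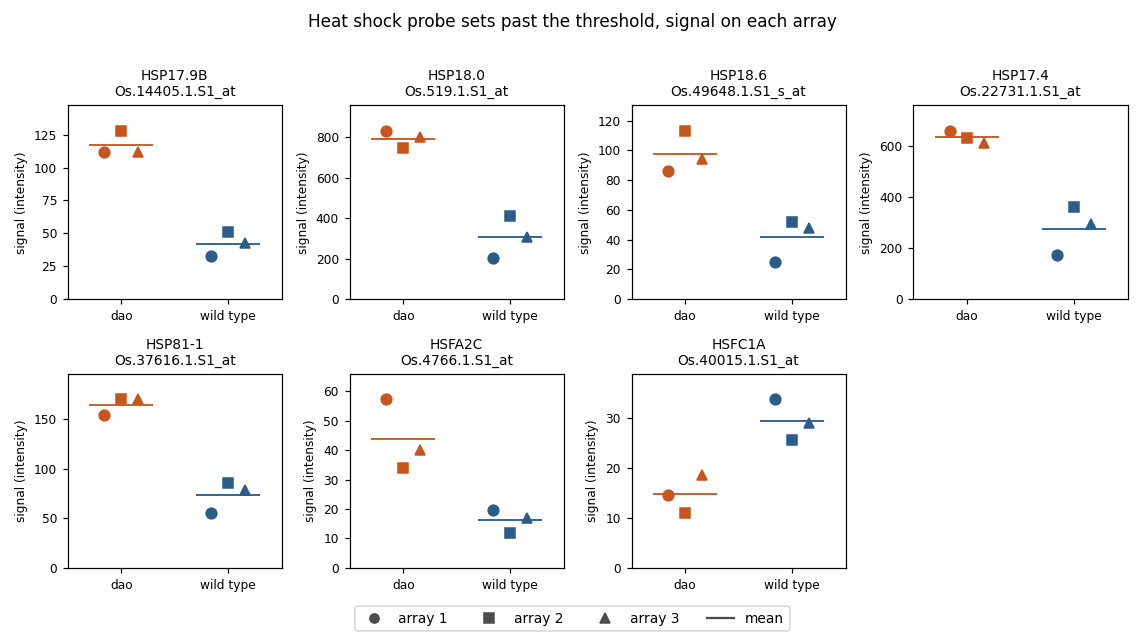
Signal (y axis, deposited intensity from 0) of the 7 heat shock probe sets past the threshold on the 3 dao arrays (left, orange) and the 3 wild-type arrays (right, blue); symbols mark the array number and lines the group means. The groups do not overlap in any panel, and wild-type array 1 is the lowest of its group in 5 of the 6 panels in which dao is higher.

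By the order of genes in RefSeq assembly ASM3414082v1, small heat shock genes stand side by side in 2 places. On chromosome 1 HSP16.6, HSP17.9B, HSP16.9A and HSP16.9B follow each other, with HSP16.9C between them, not analysed here. HSP17.9B rose, while HSP16.9A and HSP16.9B, both of cytosolic class I, had log2 differences of 0.69 (adjusted p = 0.0730) and 0.53 (adjusted p = 0.266). HSP16.9A stood at 44.9, 28.7 and 28.8 on the dao arrays, against 19.7, 22.3 and 20.0 on the wild-type arrays, without overlap. HSP16.9B stood at 49.6, 70.0 and 49.2 on the dao arrays, against 26.3, 53.9 and 39.7 on the wild-type arrays, with overlap.

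On chromosome 3 HSP17.4, HSP18.1 and HSP17.7 stand next to each other, and 4 genes lie between HSP17.9A and HSP17.4. HSP17.7, of the same class I, had a log2 difference of 0.61 (adjusted p = 0.0624), with every dao array above every wild-type array. HSP17.9A, also class I and one of the 4 brightest small heat shock probe sets, did not move in the direction of its neighbours. It stood at 1136, 1054 and 1098 on the dao arrays, against 1823, 955 and 1308 on the wild-type arrays. The wild-type arrays enclosed all 3 dao arrays, and the log2 difference was -0.26 (adjusted p = 0.470). Class I genes are near copies of each other, so probe sets of one may also read another.

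The negative log2 differences among the tested small heat shock probe sets were those of HSP17.9A, HSP17.8, HSP18.8, HSP24.1 and HSP26.2, and none passed. HSP26.2 had the lowest, at -0.84 (SE 0.70, adjusted p = 0.497). Its signal was 76.3, 118 and 82.9 on the dao arrays, against 464, 48.4 and 193 on the wild-type arrays. The wild-type arrays spanned the dao arrays on both sides, and without wild-type array 2 the log2 difference was -1.72 and past the threshold, while without wild-type array 1 it was -0.088 (adjusted p = 0.928 by limma). HSP24.1, a mitochondrial small heat shock protein, showed the same order of wild-type arrays, with 218, 166 and 207 on the dao arrays, against 559, 136 and 287 on the wild-type arrays. HSP18.8 stood at 243, 379 and 302 on the dao arrays, against 539, 333 and 412 on the wild-type arrays, which overlapped. Without wild-type array 1 the log2 differences were -0.012 for HSP24.1, -0.029 for HSP17.9A and -0.29 for HSP18.8.

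The tested small heat shock probe sets split by the place of wild-type array 1. It was the lowest wild-type array in 13 of the 21 tested probe sets, and in 10 of those every dao array was above every wild-type array. It was the highest in 7 of the 21, and 4 of those, HSP17.9A, HSP18.8, HSP24.1 and HSP26.2, had a negative log2 difference. In the others, of HSP26.7 and HSP18.0, every dao array was above every wild-type array. A low wild-type array 1 itself raises the log2 difference and a high one lowers it, so the split is partly built in. No share over all probe sets was taken for the place of this array. This split was noticed after the values were seen and carries no test.

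The largest log2 difference without a call was that of HSP21.9, picked out only once its values were known. Its brighter probe set stood at 32.5, 7.12 and 30.7 on the dao arrays, against 7.15, 8.73 and 6.27 on the wild-type arrays (log2 1.39, adjusted p = 0.144). Dao arrays 1 and 3 were high, while dao array 2 lay among the wild-type arrays. Without dao array 2 the log2 difference was 2.11 and past the threshold (adjusted p = 0.00261 by limma). The dimmer probe set of HSP21.9 had a smaller log2 difference of 0.29 (adjusted p = 0.531), with overlap, and 0.61 without dao array 2. The summed signal of the tapetum list, genes of the inner layer of the anther wall, also had dao array 2 lowest. It was 6794, 2855 and 5641 on the dao arrays, against 3041, 2962 and 3000 on the wild-type arrays. RTS made up most of it, with 4684, 1541 and 3822 on the dao arrays, against 1684, 1629 and 1676 on the wild-type arrays. Among the other tested probe sets of the list, dao array 2 was also lowest for C6, CP1, EAT1, GAMYB, PTC1, RAFTIN1, TDL1A and TDR. It was not lowest for MTR1 and MSP1. On the dao arrays C6 stood at 531, 149 and 438, and MTR1 at 116, 113 and 112. RAFTIN1 stood at 108, 40.4 and 77.1 there, with a log2 difference of -0.36. Of the 11 tested probe sets of that list 0 passed in limma, with 3 higher at an unadjusted p of 0.05 or less, and their part in the HSP21.9 value was not tested. HSP26.7, the small heat shock protein of plastids, was dim, with 11.5, 6.90 and 9.30 on the dao arrays, against 6.06, 4.65 and 5.51 on the wild-type arrays (log2 0.75, adjusted p = 0.0526). These did not overlap.

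**Figure D3:**
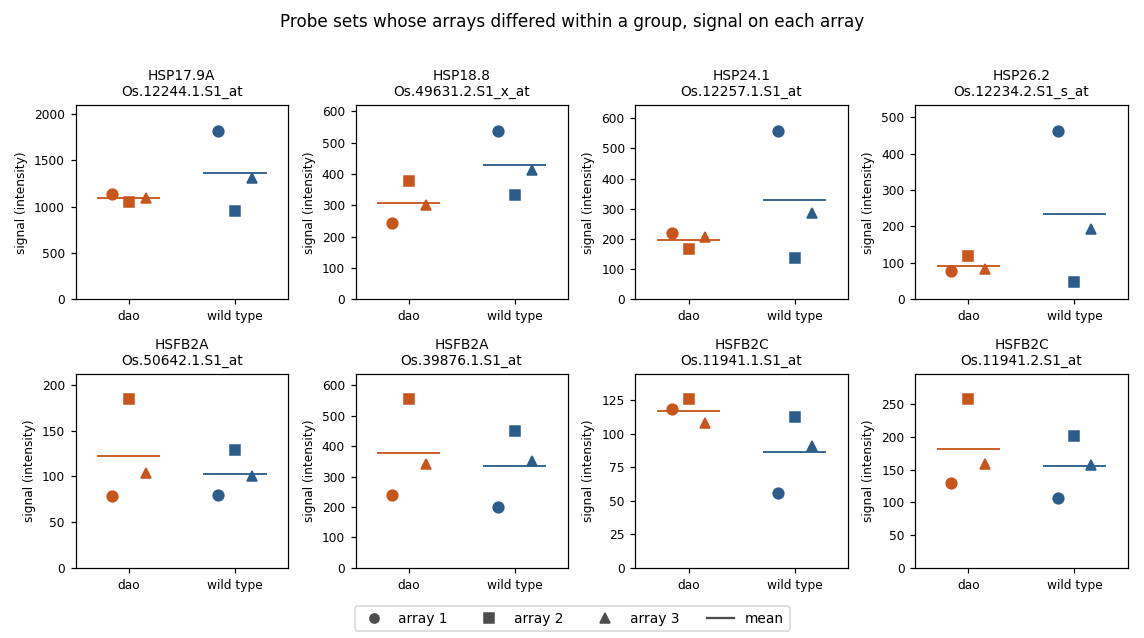
Signal (y axis, deposited intensity from 0) on the 3 dao arrays (left, orange) and the 3 wild-type arrays (right, blue) for 4 small heat shock genes with a negative log2 difference and for 2 probe sets each of HSFB2A and HSFB2C; symbols mark the array number and lines the group means. Wild-type array 1 is the highest of its group in the upper panels and the lowest in the lower ones, where array 2 is the highest in both groups.

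The larger heat shock proteins were all of the HSP90 family except HSP101. All 8 tested probe sets had a positive log2 difference, 1 rose, 0 fell, 3 were higher on the adjusted p alone and 4 did not pass. The share that rose was 12.5%, against 2.03% of all probe sets tested and 2.95% of those paired with 1 gene. The one that rose was the dimmer probe set of HSP81-1 (LOC4345951, chromosome 8, also called HSP82), with 154, 170 and 170 on the dao arrays, against 55.7, 85.7 and 78.6 on the wild-type arrays. The groups did not overlap (log2 1.19, SE 0.18, adjusted p = 0.00929). The second probe set of the gene was bright, with 3431, 3487 and 3298 on the dao arrays, against 2202, 3008 and 2680 on the wild-type arrays. It did not overlap either, but its log2 difference was 0.38 (adjusted p = 0.0765). The change in HSP81-1 thus differed in size between its probe sets.

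HSP81-3 and HSP81-2 stand on chromosome 9 with 2 genes between them. HSP81-3 (LOC4347405) had 5 probe sets, of which 4 were tested. One had 611, 447 and 502 on the dao arrays, against 312, 235 and 265 on the wild-type arrays (log2 0.94, SE 0.15, adjusted p = 0.0125), just under 2-fold and without overlap. A second, with suffix _x_at, had 987, 772 and 885 on the dao arrays, against 619, 447 and 534 on the wild-type arrays (log2 0.73, adjusted p = 0.0229). The brightest, with suffix _s_at, had 8912, 7895 and 8681 on the dao arrays, against 6777, 6573 and 6691 on the wild-type arrays (log2 0.35, adjusted p = 0.0226). In all 3 of these the dao arrays were above the wild-type arrays. Suffixes _s_at and _x_at mark probes that can match other transcripts, so values of the 3 HSP90 genes may share signal.

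HSP81-2 (LOC4347402) stood at 2027, 1617 and 1903 on the dao arrays, against 1644, 1141 and 1302 on the wild-type arrays, with overlap (log2 0.45, adjusted p = 0.0985). HSP101, the disaggregase also named CLPB1, was at 50.3, 71.6 and 59.2 on the dao arrays, against 43.7, 60.7 and 40.2 on the wild-type arrays. These overlapped, with a log2 difference of 0.33 (adjusted p = 0.358).

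**Figure D4:**
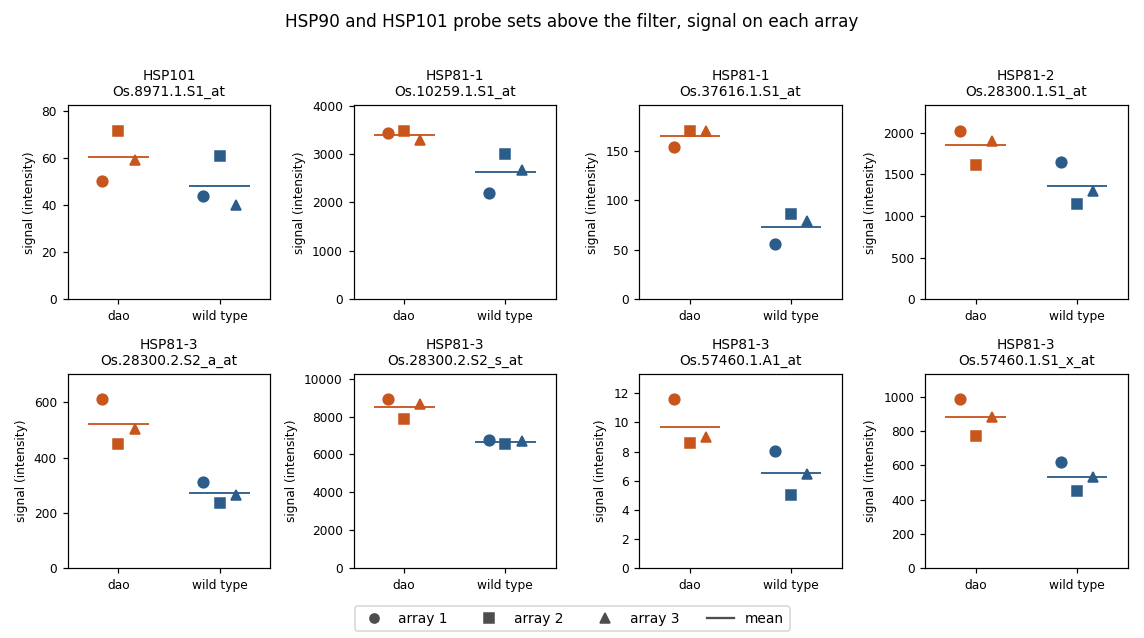
Signal (y axis, deposited intensity from 0) of the 8 tested probe sets of HSP101 and the HSP90 genes HSP81-1, HSP81-2 and HSP81-3 on the 3 dao arrays (left, orange) and the 3 wild-type arrays (right, blue); symbols mark the array number and lines the group means. Every dao array is above every wild-type array in 6 of the 8 panels (17.9% of all probe sets tested, 26.2% of those paired with 1 gene). The mean of dao is higher in all 8, by log2 0.33 to 1.19.

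Among the heat stress factors 1 of 26 tested probe sets rose, 1 fell, 4 were higher on the adjusted p alone and 20 did not pass. The share that rose, 3.85%, was near the 2.03% of all probe sets tested and the 2.95% of those paired with 1 gene. The share that fell was also 3.85%, against 1.34% and 0.797%. The probe set that rose is listed for HSFA2C (LOC4348646, chromosome 10, also called HSF6). It had 57.3, 33.9 and 39.99 on the dao arrays, against 19.5, 11.7 and 17.1 on the wild-type arrays (log2 1.44, SE 0.26, adjusted p = 0.0163), without overlap. The other probe set of this entry had 28.0, 21.9 and 21.4 on the dao arrays, against 11.8, 18.7 and 19.4 on the wild-type arrays (log2 0.54, adjusted p = 0.177). The entry is annotated as a transcribed pseudogene and also carries the names ARD1 and IDI1, those of an acireductone dioxygenase of methionine salvage. Whether the probe set that rose reads the heat stress factor or the dioxygenase cannot be told from the tables used here.

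The same doubt holds for HSFA2D (LOC4331707, chromosome 3), whose entry also carries the name ARD2. The brighter probe set had 370, 266 and 331 on the dao arrays, against 199, 156 and 177 on the wild-type arrays (log2 0.86, adjusted p = 0.0171), without overlap. Its other probe set followed the array number more than the group. It had 46.9, 118 and 61.7 on the dao arrays, against 34.2, 79.3 and 55.6 on the wild-type arrays (log2 0.39, adjusted p = 0.582).

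Of the other class A factors, HSFA1 and HSFA2E passed the adjusted p alone. HSFA1, whose relatives in tomato and Arabidopsis start the heat response, had 140, 126 and 127 on the dao arrays, against 93.1, 79.7 and 78.8 on the wild-type arrays. The groups did not overlap, and the log2 difference was 0.65 (SE 0.13, adjusted p = 0.0220). HSFA2E had 123, 113 and 110 on the dao arrays, against 68.0, 88.9 and 77.7 on the wild-type arrays (log2 0.56, adjusted p = 0.0456). HSFA4D, known as the spotted leaf gene SPL7, and HSFA9 had log2 differences of 0.66 (adjusted p = 0.0541) and 0.59 (adjusted p = 0.0547), both without overlap. HSFA3, which acts below DREB2 factors in Arabidopsis, had the lowest value of class A at -0.36 (adjusted p = 0.626), with the wild-type arrays from 9.69 to 34.0 around the dao arrays from 13.9 to 16.3. The 3 probe sets of HSFA2A, a gene whose Arabidopsis relative amplifies the heat response, had log2 differences of -0.08, 0.05 and 0.70, all with overlap.

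In class B, HSFB1 (LOC4347259, chromosome 9) had 218, 182 and 208 on the dao arrays, against 80.1, 130 and 114 on the wild-type arrays. The groups did not overlap, and the log2 difference of 0.93 (SE 0.19, adjusted p = 0.0234) was just under 2-fold. HSFB2A and HSFB2C, bright members of the class, varied with the array number. The brightest of HSFB2A had 239, 553 and 340 on the dao arrays, against 199, 448 and 352 on the wild-type arrays (log2 0.17, adjusted p = 0.810). The brightest of HSFB2C had 129, 257 and 159 on the dao arrays, against 107, 202 and 157 on the wild-type arrays (log2 0.21, adjusted p = 0.704). In all 5 probe sets of the 2 genes array 2 was the highest in both groups, and array 1 was the lowest on the wild-type arrays. Whether arrays of the same number share anything is not stated in the labels.

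The factor that fell was HSFC1A (LOC4326685, chromosome 1, also called HSF-02), of class C, whose function is little known. It had 14.7, 10.98 and 18.6 on the dao arrays, against 33.8, 25.7 and 29.0 on the wild-type arrays, without overlap. The log2 difference was -1.02 (SE 0.22, adjusted p = 0.0272), close to the 2-fold limit, and was past the threshold in 6 of 16 other settings. HSFC2A, the other tested member of class C, was dim, at 7.98, 6.95 and 7.61 on the dao arrays and 6.26, 7.64 and 7.37 on the wild-type arrays.

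**Figure D5:**
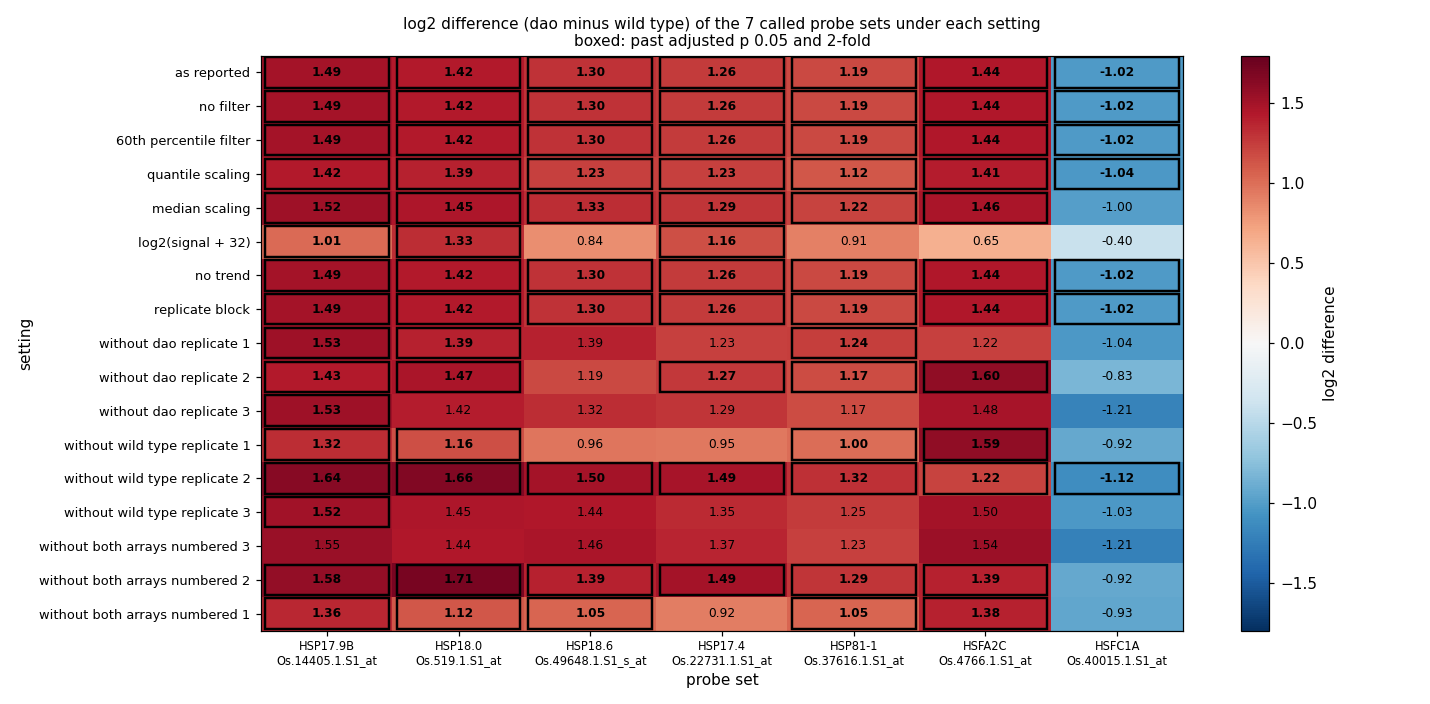
Log2 difference (dao minus wild type, colour and printed value) of the 7 heat shock probe sets past the threshold (x axis) as reported and under 16 other settings (y axis); a box marks a value past an adjusted p of 0.05 and 2-fold. No value changes sign, no box is left without both arrays numbered 3, and HSP17.9B keeps its box in the other 15 settings.

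Left out one at a time, the arrays numbered 3 mattered most for the number of calls. The log2 differences of the 7 called probe sets each moved most without an array numbered 1 or 2. That of HSP18.0 was 1.16 without wild-type array 1, against 1.42 without dao array 3 and 1.45 without wild-type array 3. Of the 7 probe sets past the threshold, only HSP17.9B passed without dao array 3 or without wild-type array 3. The calls over all probe sets tested were also fewer there, at 0.867% without dao array 3 and 0.809% without wild-type array 3, against 3.37% with all arrays. Without both, the log2 differences were 1.55 for HSP17.9B, 1.44 for HSP18.0, 1.46 for HSP18.6, 1.37 for HSP17.4, 1.23 for HSP81-1, 1.54 for HSFA2C and -1.21 for HSFC1A. All 7 sizes were larger than with all arrays, while the calls were lost, in a fit with 4 arrays.

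Other genes of protein folding, named by symbol, were read by 27 tested probe sets, of which 0 passed in limma at 2-fold. On the adjusted p alone 2 were higher and 1 lower, and 6 were higher and 2 lower at an unadjusted p of 0.05 or less. The shares past the adjusted p, 7.41% higher and 3.70% lower, were near the 6.53% and 3.35% of all probe sets tested. The 2 higher on the adjusted p alone were PDIL1-1, a protein disulphide isomerase (log2 0.69, adjusted p = 0.0175), and SGT1, the partner of HSP90. SGT1 stood at 228, 205 and 209 on the dao arrays, against 163, 142 and 154 on the wild-type arrays (log2 0.48, adjusted p = 0.0373). PDIL5-4, another isomerase, was lower (log2 -0.40, adjusted p = 0.0339). The 2 brightest were BIP1, the HSP70 of the endoplasmic reticulum, at log2 0.27 (adjusted p = 0.0571), and CLPC1, a plastid relative of HSP101, at -0.02 (adjusted p = 0.929). The median log2 difference over all probe sets of this list, dim ones included, was 0.22. For the other lists it was 0.31 (genes linked to heat), 0.36 (green tissue), 0.38 (pistil and carpel), 0.07 (tapetum) and -0.23 (pollen).

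Of 18 tested probe sets of regulators and other genes linked to heat, 1 rose, 0 fell and 4 were higher on the adjusted p alone. The share that rose was 5.56%, against 2.03% of all probe sets tested and 2.95% of those paired with 1 gene. Higher past the adjusted p at any fold were 27.8%, against 6.53% and 9.92%. The one that rose, of the cytosolic ascorbate peroxidase APX2, had 184, 150 and 167 on the dao arrays, against 59.9, 97.9 and 79.7 on the wild-type arrays (log2 1.10, adjusted p = 0.0148). The brightest probe set of APX2 had a log2 difference of 0.39 (adjusted p = 0.0534). BZIP39, BZIP50 and BZIP60, factors linked to stress of the endoplasmic reticulum, passed the adjusted p alone and had log2 differences of 0.76, 0.82 and 0.61. DREB2A and DREB2B, activators of heat and drought genes, had 0.34 (adjusted p = 0.294) and 0.19 (adjusted p = 0.569), with overlap.

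Photosynthesis genes, as markers of green tissue, had 17 tested probe sets, with 0 past the threshold in limma. On the adjusted p alone 2 were higher, and 4 were higher at an unadjusted p of 0.05 or less. Their share higher past the adjusted p was 11.8%, against 6.53% of all probe sets tested and 9.92% of those paired with 1 gene. Their summed signal was 6812, 2104 and 5176 on the dao arrays, against 4424, 2360 and 3022 on the wild-type arrays. Dao array 2 was the lowest there, as it was for HSP21.9, and the part of green tissue in the heat shock values was not tested. Of the pistil and carpel genes, MADS13 was past the threshold (log2 2.02, adjusted p = 0.00212) and DL was not (log2 -0.09). The summed signal of this list was 761 to 787 on the dao arrays and 515 to 766 on the wild-type arrays. MADS58 made up most of it, at 739, 743 and 717 on the dao arrays, against 490, 744 and 631 on the wild-type arrays. Its log2 difference was 0.26 (adjusted p = 0.325 by limma). The part of this list in the heat shock values was not tested. Without both arrays numbered 3, no gene of these further lists passed the adjusted p: the lowest was 0.233 by limma, for MADS13, whose log2 difference was 2.03, while APX2 stood at 1.12 and SGT1 at 0.51.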

How the data were processed

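Transcript levels were measured on 6 Affymetrix rice genome arrays. The values are intensities on a linear scale, as deposited. Per the submitters' processing notes they came from MAS5 (no version named); its settings are not stated. The number of arrays limits the precision.

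Gene names came from the platform annotation, with 22436 probe sets paired with 1 gene and 95 with several, and RefSeq ASM3414082v1, matched through the Entrez ID for all 17905 genes, gave synonyms and the order of genes. The 123 control probe sets were left out. Log2 intensities were fitted over 34355 probe sets with limma 3.58.1 in R 4.3.3 (trend, group as the only term, 2-sided), with Benjamini-Hochberg adjustment over all of them. The threshold (2-fold and 0.05) is that of the series' design, where a q-value stood instead of this adjusted p. HSFA2A, also called HSP2, was put with the factors.

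Members and lists were chosen with earlier results of these data known. Symbols that also name other proteins were dropped from the lists by name. Described in full are members past the threshold or the adjusted p alone, the 4 brightest per class, the extreme log2 differences per class and, of the genes past the threshold, the other probe sets; further members were added after their values were seen, for their role, place or spread. Signals of different probe sets are not compared as levels. Alternatives changed the filter (none, 60th percentile), the scaling (quantile, median), the pseudocount (32), the trend and the replicate block, or left out arrays. No sequence is shown, since no table of sequences was used here.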

Additional observations from a re-analysis of the deposited data

How the results depend on the processing

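With each array left out in turn, the number of members higher on the dao arrays ran from 1 to 8 and lower from 0 to 2, while the share called over all probe sets ran from 0.809% to 4.9%, and the class medians from 0.43 to 0.57 (small heat shock proteins), 0.43 to 0.59 (larger) and 0.24 to 0.43 (factors). Without both arrays numbered 3, 0 were higher and 0 lower, and the median of the small heat shock proteins was 0.61. With log2(signal + 32), 3 were higher and 0 lower, and the medians of the small heat shock proteins and the factors were 0.26 and 0.16. With median scaling 0 were lower. Settings chosen after seeing the data left out both arrays numbered 2 (median 0.62 for the small heat shock proteins) or both numbered 1 (median 0.40, with 0 members lower). With single arrays left out, the brightest probe set of HSFB2C ran from -0.067 to 0.43 and that of HSFB2A from -0.16 to 0.46, below 0 without dao array 2 or wild-type array 1 in both. HSP26.2 stood at 0.037 without both arrays numbered 1. The causes were not tested. The replicate number as a block, the pairing check, gave 6 higher and 1 lower and changed no 2-fold call of a member. On the adjusted p alone HSFA2E was lost (0.0542 by limma) and 5 were gained, of HSP16.0, HSP26.7, HSP81-2 (0.0276), HSP81-3 and HSFA4D. Deviations from the group means correlated across probe sets at 0.25, 0.18 and 0.09 for the same-numbered arrays 1, 2 and 3. Each dao array correlated best with the wild-type array of its number, but wild-type array 3 correlated best with dao array 2 (0.13). This does not settle whether the numbers pair the samples. The labels state no pairing, so the main fit has none. Signal over background limits the dim members, for which no detection call was used.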
